A study of Mus musculus with 5 samples.

Results

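The genes described here encode the subunits of RNA polymerases I, II and III, and their messenger RNA was measured in 2-cell embryos of the mouse by RNA-seq. The members are the rows of the deposited expression table whose symbol starts with Polr1, Polr2 or Polr3 and goes on with a letter, which gave 28 of the 32285 genes in the table. Of these, 5 symbols start with Polr1, 13 with Polr2 and 10 with Polr3. The symbols do not follow the enzymes exactly, since some proteins with a Polr1 or Polr2 name are built into several enzymes. By their place in the enzymes, 3 members belong to polymerase I alone, 8 to polymerase II, 10 to polymerase III, 2 to both polymerases I and III and 5 to all 3 polymerases. The table lists 4 further subunits under other symbols, Cd3eap, Twistnb and Znrd1 of polymerase I and Crcp of polymerase III, and these are given only for comparison.

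Eggs of superovulated females aged 6 to 9 weeks were fertilised in vitro for about 6 h with sperm of males aged 12 to 16 weeks. Eggs with both pronuclei were then kept for 24 h in KSOM, an embryo culture medium. The PNMC group, with 3 libraries, had 25 nM PNMC in the medium, an agent whose abbreviation the labels leave unexplained. The control group, with 2 libraries, had DMSO, the solvent, in equal volume. No mouse strain is named in the labels, which also do not say how many embryos went into a library or whether libraries came from separate cultures. P-values therefore rest on how these libraries vary among themselves, and that variation may be technical. In such bulk samples, fewer cells of a type and less RNA per cell cannot be told apart.

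RNA polymerase I transcribes the ribosomal RNA precursor in the nucleolus, polymerase II transcribes messenger RNA and many regulatory RNAs, and polymerase III transcribes transfer RNA, 5S ribosomal RNA and other short RNAs. All of them share one architecture: a large pair of catalytic subunits forms the cleft for the DNA, an alpha-like pair starts the assembly, a set of small subunits is common to every enzyme, and a stalk and peripheral subunits are particular to each. At the 2-cell stage the mouse embryo starts large-scale transcription of its own genome while many messages laid down in the egg are still present. The levels below are of messenger RNA, and they do not tell maternal from newly made transcripts or give the amount of enzyme.

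The deposited values are normalised levels with no named unit, and no counts go with them, so depth is unknown. Library sums lay between 446010 and 454548. Among genes with a single annotated transcript and a value of at least 1, level and transcript length were hardly related, with Spearman's rho across genes from 0.0601 to 0.0988 over the 5 libraries, as in a unit already scaled by length. Levels of different genes are compared below as deposited, with the ratio after division by transcript length where it turns an order. The length used is that of the longest annotated transcript of each gene. If the unit is already scaled by length, this divides by length again. All 14 oocyte and maternal markers and all 10 markers of the 2-cell programme in the table were present. Of 14 cumulus and granulosa markers 2 reached a value of 1 in 2 libraries, Cyp19a1 (2.46 to 4.03 over the 5 libraries) and Tnfaip6 (0.106 to 2.62). The defining markers Foxl2 and Amh were at 0 in every library. The summed level of the cumulus list was 7.56 to 10.7 in controls and 5.83 to 7.14 after PNMC, and that of 10 blood and immune markers was 17.98 to 27.0 and 15.1 to 17.3, so both lay lower after PNMC. Of the blood and immune markers 4 reached a value of 1 in 2 libraries. Among them Hba-a1 was at 4.57 to 8.29 and Cd74 at 3.21 to 12.8 over the 5 libraries. Against the sum, Cd68 lay higher after PNMC (3.83 to 4.52) than in controls (2.23 and 0.852). Ptprc, a defining marker of white blood cells, was at 0 in 4 libraries and at 0.0412 in control library 2. The sums of 9 sperm markers (4.22 to 4.60 and 4.54 to 6.89) and of 7 oviduct markers (80.9 to 83.2 and 66.7 to 118.9) overlapped between the groups. Most of the oviduct sum came from Epcam (43.6 to 82.9) and Cdh1 (15.3 to 25.8). Ovgp1 was at or below 1.25, Foxj1 at or below 1.37 and Pax8 at 0 in every library. The part of these cells in the results below was not tested.

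The upstream sequences of 3 members are shown for the contrast in level that the results turn on: Polr2c had the highest level of all members, and Polr3g and Polr3gl are paralogues that take the same place in polymerase III at unequal levels. Each line gives the 250 bases before the annotated start, 5′ to 3′ on the strand of the gene, from RefSeq on build GRCm38.p6, at chr8:94857200-94857449 (plus strand) for Polr2c, chr13:81711014-81711263 (minus strand) for Polr3g and chr3:96594182-96594431 (minus strand) for Polr3gl. Capitals mark a match, on either strand, to one of the 5 motifs searched.
Polr2c: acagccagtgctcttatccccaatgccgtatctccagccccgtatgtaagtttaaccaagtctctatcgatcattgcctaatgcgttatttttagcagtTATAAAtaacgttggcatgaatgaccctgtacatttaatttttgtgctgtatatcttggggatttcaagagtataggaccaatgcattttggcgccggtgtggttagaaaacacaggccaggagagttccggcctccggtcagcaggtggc
Polr3g: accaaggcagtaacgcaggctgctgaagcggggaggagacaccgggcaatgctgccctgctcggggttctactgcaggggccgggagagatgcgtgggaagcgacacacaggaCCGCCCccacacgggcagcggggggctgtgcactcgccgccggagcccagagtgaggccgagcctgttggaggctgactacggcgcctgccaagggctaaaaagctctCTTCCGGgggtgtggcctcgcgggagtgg
Polr3gl: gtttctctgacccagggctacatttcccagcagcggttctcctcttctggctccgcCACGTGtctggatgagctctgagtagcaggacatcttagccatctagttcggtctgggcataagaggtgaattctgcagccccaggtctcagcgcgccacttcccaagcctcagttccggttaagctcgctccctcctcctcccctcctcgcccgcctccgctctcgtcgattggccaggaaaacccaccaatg

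The motifs were CCGGAAG, a core that ETS factors bind, and the Sp1 box GGGCGG. The E-box CACGTG was searched too, as was the TATA box in its form TATAAA. The last was a core of the NRF1 motif, GCGCATGC. Both strands were searched, and no motif contains another. The Polr3g window held CCGGAAG from position -29 to -23 before the start and GGGCGG from -137 to -132. The Polr3gl window held CACGTG from -194 to -189, and the Polr2c window held TATAAA from -151 to -146. RefSeq windows were matched for 22 of the 28 members, and Polr2d, Polr2g, Polr2k, Polr3a and Polr3d were among those without an entry. GGGCGG was found in 14 of the 22 (63.6%) against 32.7% of 32851 promoter windows of the same length, and CCGGAAG in 5 (22.7%) against 6.91%. TATAAA was in 2 members (9.09%) against 12.4% of all windows, CACGTG in 2 against 6.02% and GCGCATGC in 2 against 2.26%. The 24 windows of these members were also richer in G and C, with a median of 60.4% against 52.4%. Members are counted as genes with a match in any of their windows, while the share over all promoters counts single windows. All are matches of letters, given as a description without a test.

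Every subunit gene was detected in at least 4 of the 5 libraries, and the 28 levels spanned a wide range. All 28 passed the filter of at least 1 in at least 2 libraries, which kept 12734 genes. Averaged over the 5 libraries, Polr2c stood highest at 575.5 ± 35.6 (SD, n = 5), above 99.4% of the genes tested. It encodes the larger of the alpha-like pair with which polymerase II assembly starts. Polr2m stood lowest at 1.03 ± 0.663 (SD, n = 5), and it was listed at 0 in PNMC library 3. Its product Gdown1 binds a fraction of polymerase II and is not a core subunit. In the order of the means, only 4 of 27 neighbouring pairs did not overlap over the 5 libraries. The breaks lay below Polr2c, below Polr2j, between Polr1d at 62.8 ± 7.93 and Polr2b at 37.3 ± 5.52, and just above Polr3g at 9.86 ± 1.25. The ranges of all other neighbours overlapped, which by itself does not settle their order within a library. Polr2f, for instance, was above Polr1d and Polr2b above Polr3k in each library.

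**Figure D1:**
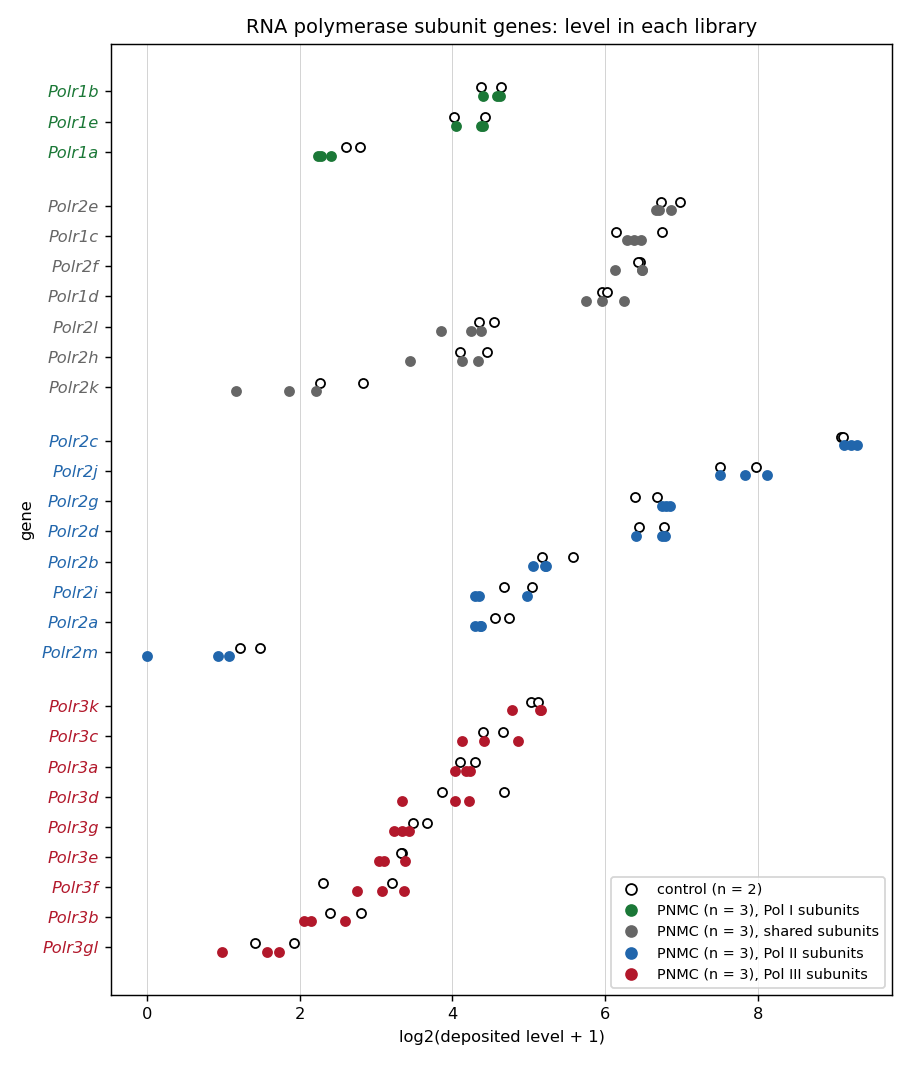
Level of the subunit genes in each library, as log2(deposited level + 1) on the x axis, with open circles for the 2 control libraries and filled circles for the 3 PNMC libraries, grouped by enzyme. Polr2c lies highest (mean deposited level 575.5) and Polr2m lowest (1.03), and control and PNMC circles lie close to each other for most genes.

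The 3 enzymes differed in the level of their own subunits, as a description of these genes. The median level was 68.0 over the 8 polymerase II genes, 18.2 over the 3 polymerase I genes and 12.7 over the 10 polymerase III genes, against 7.09 over all genes tested. The 7 genes shared between enzymes had a median of 62.8. These medians leave out the subunits outside the naming rule. They are Cd3eap at a mean of 8.16, Twistnb at 5.49 and Znrd1 at 27.7 of polymerase I, and Crcp at 13.8 of polymerase III. The order of polymerases I and III therefore depends on the naming rule. The ranges of the groups overlapped, since polymerase II genes ran from 1.03 to 575.5, shared genes from 3.49 to 109.9, polymerase I genes from 4.58 to 22.1 and polymerase III genes from 1.95 to 32.2.

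Setting genes side by side by their place in the enzyme gave the clearest ordering. In the alpha-like pair, Polr2c and Polr2j of polymerase II stood above Polr1c and Polr1d, which serve polymerases I and III together. Polr2c was at 541 and 555 in control libraries 1 and 2 and at 557, 628 and 596 in PNMC libraries 1, 2 and 3. Polr1c was at 106 and 69.8 in the controls and at 82.4, 87.5 and 76.8 after PNMC. The ratio of Polr2c to Polr1c was 6.95 ± 1.14 (SD, n = 5), and Polr2c was higher in 5 of 5 libraries.

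The smaller partners of this pair showed the same order. Polr2j was at 181 and 249.9 in the controls and at 277, 227 and 179.9 after PNMC, and Polr1d was at 61.2 and 64.2 and at 60.9, 74.8 and 52.8. The ratio of Polr2j to Polr1d was 3.57 ± 0.660 (SD, n = 5). Neither partner was level with the other, since Polr2c was 2.66 ± 0.537 times Polr2j. Dividing by annotated transcript length turned this last ratio to 0.617 but left Polr2c above Polr1c (2.35) and Polr2j above Polr1d (5.35). Polr2c shares 953 exon bases in the annotation with Dok4 on the opposite strand. Dok4 was at 23.6 to 37.5, and reads of the overlap cannot be told apart in these libraries without strand. Of the 50-base words of Polr2c 26.1% also occur in other annotated transcripts, as do 11.5% of those of Polr2j and 10.8% of those of Polr1d, so these levels are uncertain where such reads were split or dropped.

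The stalk, which binds the emerging RNA, also stood high for polymerase II. Polr2g, the RPB7 protein, was at 82.6 and 102 in the controls and at 114, 110.3 and 106 after PNMC. Twistnb, its counterpart in polymerase I, was at 8.61 and 5.55 and at 3.89, 5.68 and 3.69. Polr2g was higher in 5 of 5 libraries, by 9.59 to 29.4 times. The smaller stalk subunit Polr2d averaged 98.6 ± 12.8 and stood 7.46 ± 1.93 times above Crcp of polymerase III (SD, n = 5).

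**Figure D2:**
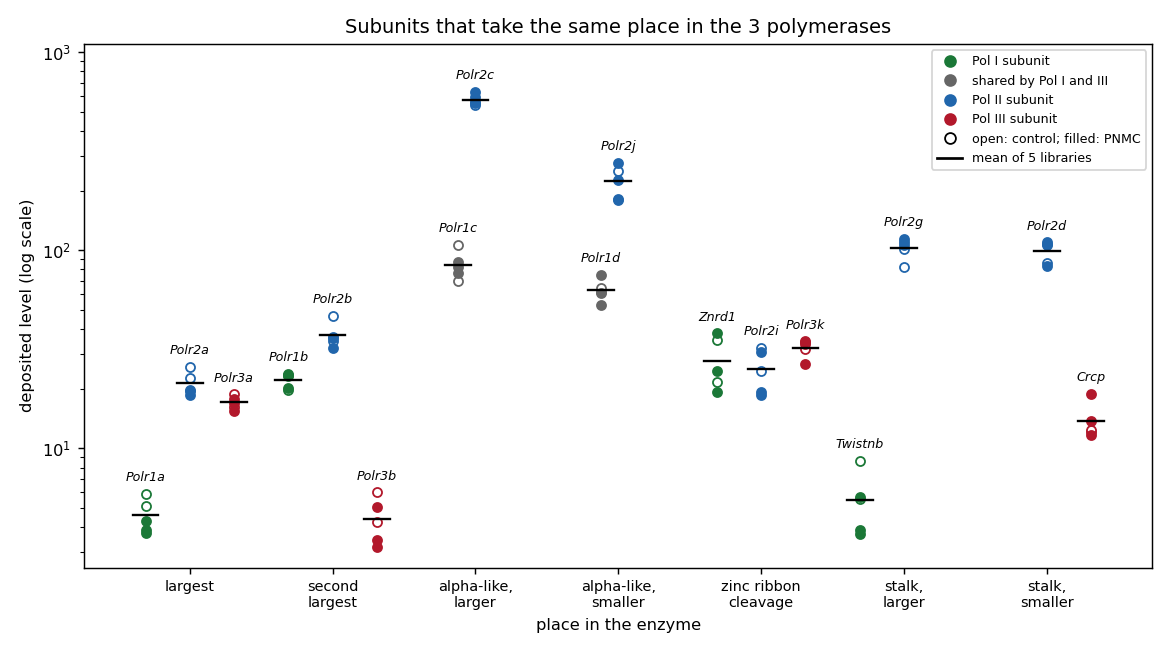
Deposited level on a log axis of genes that take the same place in the 3 enzymes, with open circles for controls, filled circles for PNMC and a bar at the mean of 5 libraries. The polymerase II gene lies above the counterparts shown in 5 of 5 libraries at every place except the zinc ribbon subunit, where Znrd1, Polr2i and Polr3k overlap.

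The catalytic subunits were lower than the alpha-like pair and the stalk of polymerase II, and the enzymes differed in which of the pair was higher. Polr2a, which carries the C-terminal domain with its heptad repeats, was at 25.9 and 22.7 in the controls and at 19.8, 18.6 and 19.6 after PNMC. Polr2b, the second-largest subunit, was at 46.7 and 35.0 and at 32.2, 36.2 and 36.3. The ratio of Polr2b to Polr2a was 1.76 ± 0.166 (SD, n = 5).

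In polymerase I the gap was wider. Polr1a, the largest subunit, was at 5.91 and 5.10 in the controls and at 3.86, 3.74 and 4.32 after PNMC. Polr1b, its partner in the active centre, was at 23.8 and 19.7 and at 23.1, 23.6 and 20.2. Polr1b stood 4.97 ± 1.11 times above Polr1a (SD, n = 5).

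Polymerase III had the opposite order. Polr3a, its largest subunit, was at 16.2 and 18.7 in the controls and at 17.0, 15.4 and 17.8 after PNMC. Polr3b, the second-largest, was at 5.99 and 4.27 and at 5.07, 3.45 and 3.18. The ratio of Polr3b to Polr3a was 0.259 ± 0.0747 (SD, n = 5). In all 5 libraries the second-largest subunit was higher for polymerases I and II and lower for polymerase III, and division by transcript length left these directions as they were, with ratios of 11.5, 2.86 and 0.252. Polr2a and Polr3a lay close, with a ratio of 1.25 ± 0.196, which division by length turned to 0.899, so their order depends on the unit.

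The zinc ribbon subunits, which help the enzymes to cleave the RNA when they backtrack, overlapped in their deposited levels. Polr3k averaged 32.2 ± 3.40, Znrd1 27.7 and Polr2i 25.0 ± 6.20 (SD, n = 5), and no gene was highest in more than 2 of 5 libraries. Division by transcript length turned the mean ratio of Polr3k to Polr2i from 1.37 to 0.381 and that of Polr3k to Znrd1 from 1.25 to 0.315, so their order depends on the unit. Polr2i shares 325 exon bases with Tbcb on the opposite strand, and reads of the overlap cannot be told apart without strand. Tbcb was at 26.1 to 42.5 over the libraries, against 18.6 to 32.1 for Polr2i. Of the words of Polr2i 19.7% also occur in Tbcb. The level of Polr2i in this comparison is therefore uncertain where such reads were split or dropped. The TFIIF-like pairs also lay in the same range. Polr1e stood 2.25 ± 0.280 times above its partner Cd3eap in polymerase I, and Polr3d 1.87 ± 0.542 times above its partner Polr3e in polymerase III (SD, n = 5).

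The small subunits common to all enzymes were far from equal. Polr2e, or RPB5, was at 125 and 105 in the controls and at 103, 116 and 100.3 after PNMC. Polr2f, or RPB6, was at 86.5 and 85.2 and at 88.2, 88.2 and 69.1. Polr2l, or RPB10, was at 19.4 and 22.3 and at 17.9, 19.7 and 13.5.

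Polr2h, or RPB8, lay near Polr2l, at 16.1 and 20.9 in the controls and at 16.5, 19.2 and 9.92 after PNMC. Polr2k, or RPB12, was the lowest, at 3.83 and 6.10 in the controls and at 1.25, 3.65 and 2.65 after PNMC. Polr2e was thus between 17.3 and 82.7 times Polr2k, and 10.1 times on average after division by length. Polr2k is the shortest of these genes, with 601 annotated bases, and 21.6% of its 50-base words also occur in other annotated transcripts. Polr2l shares 21.0% of its words and Polr2h 10.9%, and the same limit applies.

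Polymerase III differs from the others in a peripheral trimer that opens the promoter, made of the products of Polr3c, Polr3f and either Polr3g or Polr3gl. Polr3g is known from human and mouse stem cells as the form of undifferentiated cells, and Polr3gl as the form found in most tissues. Polr3g was at 10.2 and 11.7 in the controls and at 8.41, 9.12 and 9.83 after PNMC. Polr3gl was at 1.66 and 2.81 and at 2.30, 0.986 and 1.98.

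Polr3g was higher in 5 of 5 libraries, by 3.65 to 9.25 times, with a mean ratio of 5.64 ± 2.23 (SD, n = 5). On the log2(level + 1) scale the difference was 1.91 ± 0.321 (SD, n = 5), and with values divided by transcript length it was 1.06. No 50-base word of Polr3g occurs in another annotated gene. Polr3gl shares 3.41% of its words with others. The trimer's other members were Polr3c at 21.8 ± 4.49 and Polr3f at 6.94 ± 2.12 (SD, n = 5). Polr3c was above Polr3g by 2.26 ± 0.679 times (SD, n = 5).

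**Figure D3:**
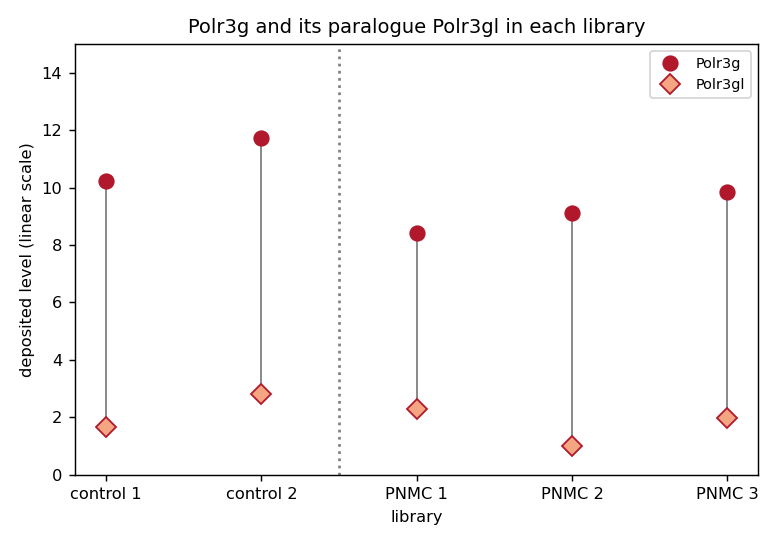
Deposited level of Polr3g (circles) and Polr3gl (diamonds) in each library on a linear axis, with the 2 control libraries left of the dotted line. Polr3g lies between 8.41 and 11.7 and above Polr3gl, which lies between 0.986 and 2.81, in each of the 5 libraries.

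With PNMC, no polymerase subunit gene passed the threshold of an adjusted p under 0.05 in limma's moderated test, and none of all 12734 genes did (0%). The lowest adjusted p among the members was 0.986, for Polr2k. At an unadjusted p under 0.05 there were 0 of 28 members, against 4.99% of all genes tested. The mean of log2(level + 1) was lower after PNMC in 21 of 28 members (75%) against 56.9% of all genes. One of the 21, Polr1d, had a deposited mean of 62.7 in controls and 62.9 after PNMC. The median log2 change of the members was -0.11 against -0.05 over all genes. The 95% interval of the change lay within 1 unit on the log2(level + 1) scale in either direction for 21 members. For the others a larger change is not excluded by these libraries.

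The groups did not overlap in 7 of 28 members (25%), where the share over all genes was 19.9%. In 5 of the 7 all PNMC values lay below both controls (17.9% of the members, against 11.9% of all genes): Polr1a, Polr2a, Polr2k, Polr2m and Polr3g. In Polr2c and Polr2g all PNMC values lay above both controls.

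Polr2k had the largest difference of the members on the log2(level + 1) scale, its control mean being 4.97 ± 1.60 (SD, n = 2) and its PNMC mean 2.51 ± 1.21 (SD, n = 3). This is -0.80 on the log2(level + 1) scale (SE 0.384, 95% interval -1.63 to 0.03), with an adjusted p of 0.986 by limma. Polr2m was at 1.34 and 1.79 in the controls and at 1.11, 0.90 and 0 after PNMC, which gave -0.69 in log2 units (SE 0.454), with an adjusted p of 0.993 by limma. With a pseudocount of 0.1 the order was reversed, with -1.74 for Polr2m and -1.04 for Polr2k. With 1 library left out Polr2k ran from -1.08 (without control library 1) to -0.51 (without PNMC library 1) and Polr2m from -0.89 (without PNMC library 1) to -0.35 (without PNMC library 3). Both stand among the 3 lowest members.

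The catalytic subunits had lower mean levels after PNMC in 5 of 6 genes, where 56.9% of all genes tested had a lower log2 mean. Polr1a was at 5.50 ± 0.573 (SD, n = 2) in controls against 3.97 ± 0.304 (SD, n = 3) in the PNMC group, or -0.39 in log2 units (SE 0.300). Polr2a averaged 24.3 ± 2.26 and 19.3 ± 0.661, or -0.31 in log2 units (SE 0.202). Polr2b, Polr3a and Polr3b had log2 changes of -0.21, -0.06 and -0.33 with overlapping groups, and Polr1b had one of 0.03. The value of Polr2b was -0.41 without control library 2 and -0.0077 without control library 1, and that of Polr3b was -0.53 and -0.13. None of these passed the threshold by limma (adjusted p = 0.993 for each, adjusted over all genes tested). Their unadjusted p by limma lay between 0.147 for Polr2a and 0.872 for Polr1b.

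Among the subunits above the controls, Polr2g had a control mean of 92.2 ± 13.5 and a PNMC mean of 110.2 ± 4.30, or 0.26 in log2 units (95% interval -0.06 to 0.58), with an adjusted p of 0.993 by limma. Without control library 1 the value of Polr2g was 0.11, and without control library 2 it was 0.41. Polr2c averaged 548 ± 10.1 and 594 ± 35.2, or 0.11 in log2 units (95% interval -0.11 to 0.34). The interval of Polr2c was the narrowest of the members, so these libraries bound its change most closely.

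By enzyme, the median log2 change was 0.03 over the 3 polymerase I genes, -0.09 over the 8 polymerase II genes, -0.14 over the 10 polymerase III genes and -0.11 over the 7 shared genes. The polymerase I median leaves out Cd3eap, Twistnb and Znrd1, which had 0.08, -0.57 and -0.07, so its sign depends on the naming rule. The mean of log2(level + 1) was lower after PNMC in 1 of 3, 4 of 8, 9 of 10 and 7 of 7 genes, against 56.9% of all genes tested. Among the lower genes Polr1d was at -0.01. With 1 library left out, Polr2e, Polr2f, Polr3a, Polr3d, Polr3gl and Polr3k turned from lower to higher. Polr1b and Polr3f turned from higher to lower. Within polymerase III the changes ran from -0.40 in Polr3d to 0.31 in Polr3f, the single gene of that group with a higher mean, and Polr3k, its highest member, had -0.04. Polr3g averaged 10.98 ± 1.05 and 9.12 ± 0.714, or -0.24 in log2 units (SE 0.247), with an adjusted p of 0.993 by limma, and Polr3gl had the same log2 change of -0.24 (SE 0.391) with overlapping groups. Among the genes common to all enzymes, Polr2e, Polr2f, Polr2h and Polr2l had log2 changes of -0.11, -0.08, -0.30 and -0.29, all with overlapping groups. Without PNMC library 3, Polr2h was at -0.044 and Polr2l at -0.14. Whether the enzymes differ in their change was not tested, since genes are not replicates.

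**Figure D4:**
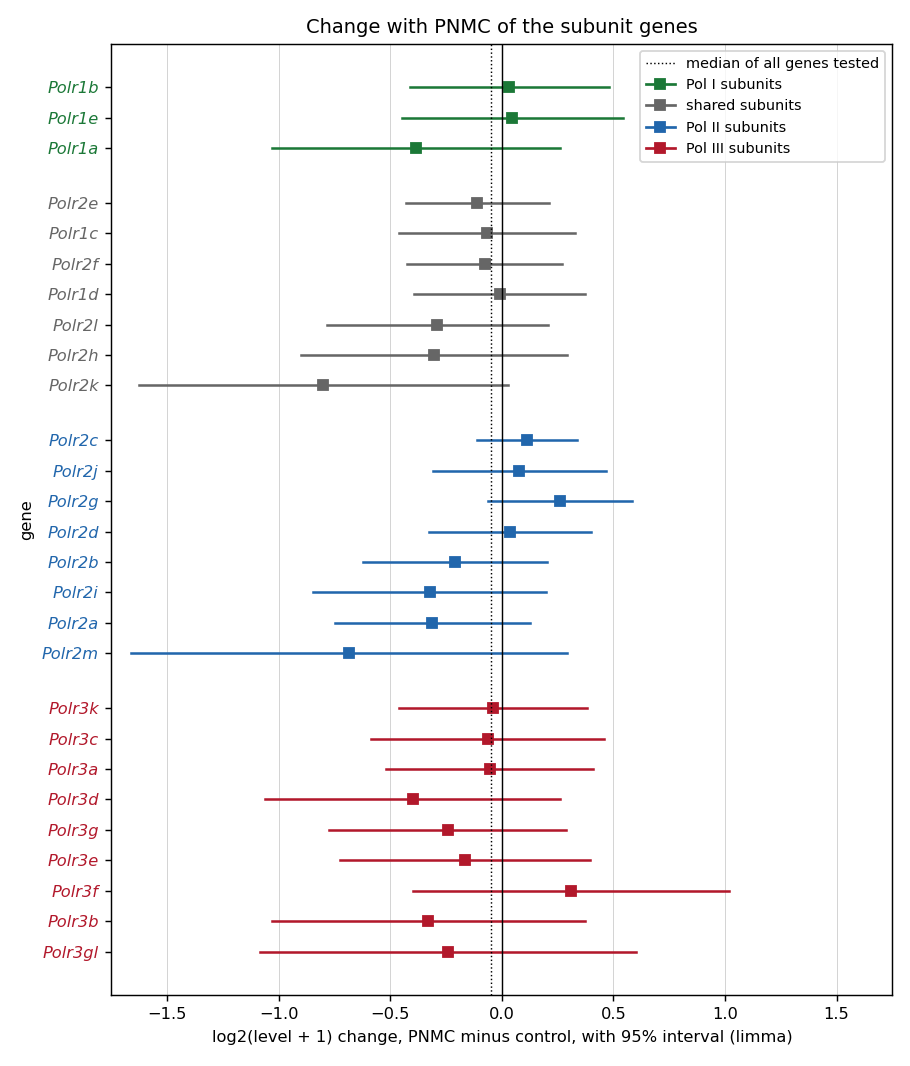
Change of the subunit genes with PNMC, as log2(level + 1) in PNMC minus control with limma's 95% interval, grouped by enzyme. All intervals shown include 0, most squares lie left of 0, and the dotted line marks the median of all genes tested (-0.05).

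The libraries of the PNMC group were not alike. PNMC library 3 held the lowest value of 12 of the 28 members (42.9%), against 22.0% of all genes tested. It held the highest of 1 (3.57%, against 18.5%). Control library 1 held the highest of 10 (35.7%, against 21.8%). The mean deviation of PNMC library 3 from each gene's average was -0.13 over polymerase I genes and -0.19 over polymerase II genes. It was -0.16 over polymerase III genes and -0.29 over the shared genes, while all genes tested were at -0.04. PNMC library 2 was at 0.14 over the shared genes, between control libraries 1 and 2 at 0.12 and 0.16. PNMC library 1 was at -0.14 over the shared genes, below both controls, and at 0.05 over polymerase II and polymerase III genes. Control library 1 was highest over polymerase I genes at 0.20 and over polymerase III genes at 0.18, and control library 2 was at -0.08 and -0.02 there. In no group but the shared genes did both controls lie above 0.10. Without PNMC library 3, 19 of the 28 members had lower log2 means after PNMC, and the median of the shared genes was -0.04. Without control library 1, 17 members had lower log2 means, and that median was -0.07. With all 5 libraries 56.9% of all genes tested had lower log2 means, and the share in these smaller fits was not taken.

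**Figure D5:**
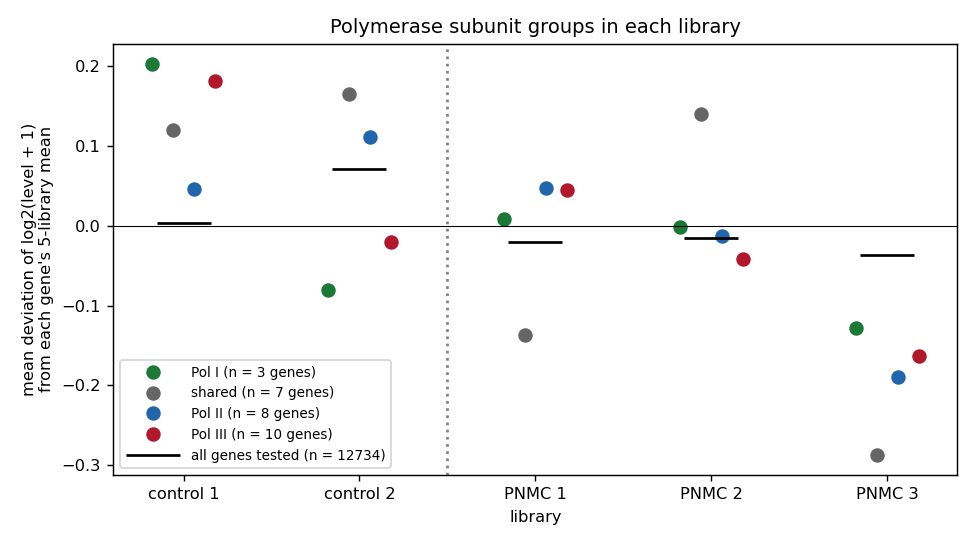
Mean deviation of log2(level + 1) from each gene's 5-library mean, by library, for the subunits of each enzyme (points) and for all 12734 genes tested (bars). PNMC 3 lies lowest in each of the 4 groups, and the other PNMC libraries lie among the controls or between them and PNMC 3.

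The factors that work with the polymerases were described by lists. Of the 9 tested initiation and termination factors of polymerase I, 3 had lower and 6 higher log2 means after PNMC, and the median change was 0.06 in log2 units. Of 18 general initiation factors of polymerase II outside TFIID, 12 were lower and 6 higher, with a median of -0.14. Of 33 pausing and elongation factors 23 were lower and 10 higher, with a median of -0.06, and of 23 assembly factors and phosphatases of the C-terminal domain 11 were lower and 12 higher, with a median of 0.02. Of 19 genes in the polymerase III list, which holds initiation factors, the repressor Maf1 and also the subunit gene Crcp, 13 were lower and 6 higher, with a median of -0.17. No gene of any list passed the adjusted threshold. At an unadjusted p under 0.05, 1 gene of these lists was higher and 6 were lower, out of the 9, 18, 33, 23 and 19 tested. Over all genes tested 4.99% passed at that level by limma, in either direction. The groups did not overlap in 1, 2, 7, 9 and 5 genes of the 5 lists, in the order given, where the share over all genes was 19.9%. Over all genes 56.9% had a lower log2 mean after PNMC, which is the measure by which list members are counted as lower here.

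The smallest p of these lists belonged to Gtf2h5, the small TFIIH subunit, at 11.9 and 10.9 in the controls and 4.90, 6.53 and 5.05 after PNMC. Its log2 change was -0.94 (SE 0.271, limma adjusted p = 0.868). Gtf2f1, the large subunit of TFIIF, was at 147 and 115 and at 88.4, 100.9 and 99.4, and Paf1, which names an elongation complex, was at 118 and 95.2 and at 62.7, 86.6 and 87.9. Hexim1, an inhibitor of the elongation kinase P-TEFb, was at 4.75 and 3.40 and at 0.376, 2.76 and 2.11.

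In the polymerase III list, Gtf3a, the factor TFIIIA that binds the 5S gene, was at 54.2 and 55.0 in the controls and at 40.5, 32.5 and 44.5 after PNMC. Snapc3, of the complex that recognises snRNA genes, was at 18.4 and 15.7 and at 21.5, 25.5 and 21.5. In the polymerase I list, Cavin1, a termination and release factor, was at 10.1 and 12.5 and at 18.9, 17.1 and 15.01.

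Ttf1, which binds the terminator of the ribosomal RNA genes, averaged 9.04 in controls and 6.28 after PNMC. In the assembly list, the prefoldin subunit Pfdn2 averaged 19.9 and 12.9, and Slc7a6os, the mouse counterpart of the yeast polymerase import factor Iwr1, averaged 55.1 and 70.6. These 10 genes were the 2 with the smallest p of each list, and their adjusted p lay at or above 0.868 by limma. Of the polymerase subunits outside the naming rule, Twistnb had the largest log2 change, -0.57 (SE 0.317), and Crcp, Cd3eap and Znrd1 had 0.23, 0.08 and -0.07, all with overlapping groups.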

How the data were processed

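Per the labels' protocols, RNA came from a TRIzol extraction and libraries from Smart-seq2, a protocol that in its usual form does not mark strand. Among the tools in the submitters' processing notes are HTSeq, Trimmomatic, DESeq2 1.16.1 and HISAT2 2.0.5, with build GRCm39, and which of them made the table is not stated. The authors deposited 1 table of a normalised signal per gene and library. Its unit is not stated, so no count test was run. Columns were matched to samples by title.

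Values were transformed to log2(value + 1) after keeping genes that reached 1 in 2 or more libraries, and compared with limma 3.58.1 (R 4.3.3, mean-variance trend, robust variances, no covariate), with Benjamini-Hochberg adjustment over all 12734 genes and a threshold of 0.05. The design, written for counts or normalised values, took its second branch. The procedure was tested on simulated data. Pair ratios, means and SDs are of deposited values (Python 3.11.15, pandas 2.3.3). Transcript lengths, exon overlaps and shared 50-base words came from GENCODE M21 on GRCm38. The overlaps rest on exon positions in that build, and genes were matched to the deposited levels by symbol. The values of 1 member are not reported here, though it is counted in its group. Members and lists were chosen with earlier results of these data known. Named were the catalytic, common, highest, lowest and non-overlapping members, Polr3g and Polr3gl, and the 2 genes of smallest p per list; the remaining members were added for the comparison by place in the enzyme. Alternatives were another pseudocount, other filters, median scaling, quantile normalisation, plain variances, a replicate block and leaving out each library.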

Additional observations from a re-analysis of the deposited data

How the results depend on the processing

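No member passed the adjusted threshold under any alternative, and Gm13103, outside the members, was the 1 gene of the table that passed anywhere (without PNMC library 1, log2 change -2.42, limma adjusted p = 0.0108), so the count over all genes ran from 0 to 1 with 1 library left out. Of 222 pairs of 19 followed members and alternatives, 210 kept their direction and 12 reversed, with no value past the threshold on either side. The cause of the reversals was not tested. Other filters and plain variances leave the log2 change of a gene as it is, so their pairs could not reverse. The replicate block gave the same log2 changes as leaving out 1 PNMC library, so the reversal of Polr2f is counted under both. The count of 210 therefore overstates how many separate checks kept the direction. With 1 library left out, the log2 change of the members that reversed ran from -0.10 to 0.16 for Polr1b, from -0.23 to 0.012 for Polr2e, from -0.14 to 0.038 for Polr2f, from -0.15 to 0.043 for Polr3a, from -0.81 to 0.0062 for Polr3d, from -0.14 to 0.76 for Polr3f, from -0.50 to 0.018 for Polr3gl and from -0.10 to 0.083 for Polr3k. The median of the polymerase I genes ran from -0.16 to 0.16, and it was -0.16 without control library 2. With a minimum of 10 in 2 libraries, 21 members were tested and the polymerase II median was 0.037. The difference of Polr3g and Polr3gl was 2.35 with a pseudocount of 0.1, 1.06 with values divided by transcript length, a setting chosen after seeing the data, and not available under the stricter filter. At an unadjusted p under 0.05 by limma, 1 member passed without PNMC library 1 (Polr2i) and 1 without PNMC library 2 (Polr2k). Without PNMC library 3 there were 0. The share of all genes at that level was not taken for these fits, and with all 5 libraries it was 4.99%.

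Replicate numbers are shared by 2 pairs, and the labels do not say what they stand for. Deviations of same-numbered libraries correlated at -0.06 and -0.04 across genes, and the numbers were not treated as pairs. The replicate block, which absorbs PNMC library 3, called 0 genes. It gave medians of 0.10, -0.11, -0.10 and -0.04 for polymerase I, II, III and shared genes, and reversed Polr2f (0.038). These medians and the Polr2f value are the same as those without PNMC library 3. DESeq2 was not run, since the values are not counts. Depth is unknown.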

Other observations

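Polrmt, the polymerase that transcribes the mitochondrial genome and is unrelated to the nuclear enzymes, was at 4.46 and 7.07 in the controls and at 7.01, 4.57 and 2.65 after PNMC. Its log2 change was -0.28 (SE 0.367, limma adjusted p = 0.993), with overlapping groups. PNMC library 3 was again the lowest of the 5. Polrmt was named after its value was seen.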
